A study of Mus musculus with 10 samples.

Results

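The RNA of 98 enzyme genes was followed in left kidneys of C57BL/6 mice after unilateral ureteral obstruction (UUO), an operation that ties off a ureter, or after a sham operation. The genes were chosen by symbol from the 13920 protein-coding genes listed, as all members of the carboxylesterase (Ces, 9 genes), UDP-glycosyltransferase (Ugt, 16), cytosolic sulfotransferase (Sult, 8), aldehyde dehydrogenase (Aldh, 21), alcohol dehydrogenase (Adh, 3), aldo-keto reductase (Akr, 15), flavin monooxygenase (Fmo, 4), glutathione S-transferase (Gst, 20) and membrane-bound glutathione S-transferase (Mgst, 2) families. The rule reads symbols and no measured value. Each group had 5 libraries of total RNA from the whole organ, and no drug or other treatment is recorded for either group. The labels give neither the time after obstruction nor the sex or age of the mice, and it is not stated that each library is from a different mouse. The p-values therefore reflect how much these libraries varied, which may be technical.

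These enzymes clear foreign and endogenous compounds. Carboxylesterases split esters, flavin monooxygenases oxidise nitrogen and sulfur, and alcohol dehydrogenases, aldo-keto reductases and aldehyde dehydrogenases interconvert alcohols, aldehydes, ketones and acids. UDP-glycosyltransferases, sulfotransferases and glutathione S-transferases then attach a sugar, a sulfate or glutathione, which makes the product soluble enough for export into urine or bile. In the kidney the proximal tubule is the main site of this chemistry, and several of the aldehyde dehydrogenases there also serve amino acid breakdown, carnitine synthesis or the making of retinoic acid.

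Coordinates are those of the gene table, in GRCm38. Values are FPKM, fragments scaled to transcript length and to library size, so levels of different genes can be set beside each other per length. Read counts were not used here, and sequencing depth cannot be read from these values. The summed FPKM of the members was 5566 to 7278 in sham libraries, 1.70% to 2.12% of the sum over all genes, and 2385 to 4597 in UUO libraries, 0.812% to 1.52%. Sham 4 was the lowest of the sham libraries and stood apart in marker genes as well. Its 5 listed adipocyte markers summed to 187 FPKM against 0.166 to 6.62 in the other sham libraries, its 7 urothelial markers to 46.5 against 1.64 to 13, and its 8 collecting duct markers to 612 against 250.2 to 286. The 17 proximal tubule markers were high in every sham library, with Kap, an androgen-regulated proximal tubule gene, at 20977 ± 3222 FPKM (mean ± SD, n = 5 here and below). All 17 were called lower in UUO. In bulk tissue, fewer cells of a type and less RNA per cell cannot be told apart.

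Of the 98 members 94 were expressed highly enough to be tested, at 0.5 FPKM or more in at least 5 libraries. In UUO 43 members were called lower and 22 higher (limma, adjusted p below 0.05 over all 13202 genes tested), while 29 were not called. That is 45.7% of the tested members lower and 23.4% higher, where 16.1% of all tested genes were called lower and 58.5% higher. The median log2 difference of the tested members was -0.27, against 0.40 for all tested genes. Among the members called lower, 31 had at least halved, as had 5.23% of all tested genes, and 14 of those called higher had at least doubled, as had 18.7% of all tested genes. Over all 98 members, UUO values lay wholly below the sham values in 37 and wholly above them in 16, against 12.2% and 47.5% of all tested genes. The 37 include Sult2a3 and the 16 include Aldh1l2, which were not tested.

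Most genes were called higher in UUO with values as deposited, and the split moved with the scaling of the libraries. Median-of-ratios scaling, which brought the median of all genes to 0.0022, gave 57 members lower and 17 higher, where 34.3% and 34.1% of all genes were called. Quantile normalization, which brought that median to -0.07, gave 53 lower and 16 higher, against 36.5% and 29.6% of all genes. All 43 losses were kept under the first and 42 under the second, while 17 and 15 of the 22 gains were kept. Rescaling to equal sums gave 38 lower and 27 higher, against 11.7% and 67.2% of all genes. Without Sham 4, 44 members were called lower and 26 higher, against 16.1% and 61.2% of all genes. For a member under 0.5 FPKM in every sham library to pass the filter, each UUO library had to reach that level, which fixed the direction of 4 of the 22 gains: Gsta1, Sult4a1, Sult5a1 and Adh7. With 1 library left out the filter asked for 4 libraries. The 26 gains without Sham 4 include Akr1c20 and Aldh1l2, which were not tested with all libraries. Both were under 0.5 FPKM in every sham library, so they could enter only through their UUO values.

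**Figure D1:**
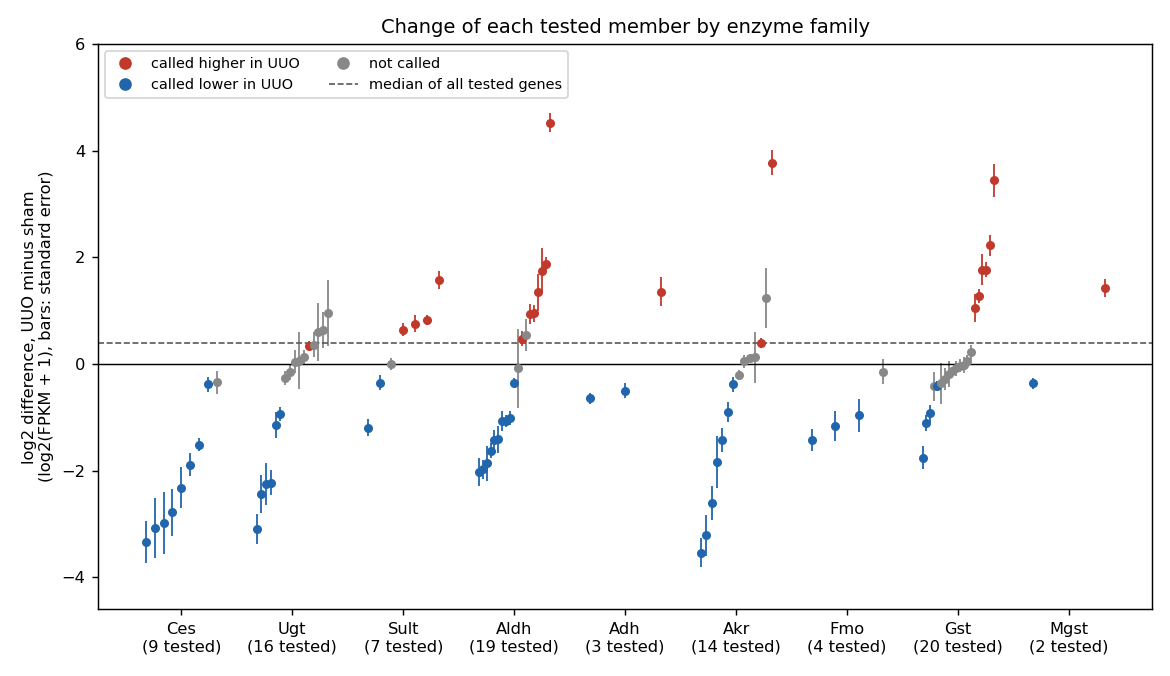
Log2 difference between UUO and sham (log2(FPKM + 1) scale, vertical axis) of the 94 tested members, sorted within each of 9 enzyme families along the horizontal axis, with standard errors. Blue points were called lower (43), red points higher (22) and grey points not called (29), and the dashed line at 0.40 is the median of all tested genes. Every called Ces and Fmo member lies below 0, while Ugt, Sult, Aldh, Adh, Akr, Gst and Mgst hold points called in both directions.

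The carboxylesterases fell as a family: 8 of 9 were called lower, 7 of them at least halved, and none higher under any of the 3 other scalings. The 8 were 88.9%, beside 16.1% of all tested genes called lower. Their summed level averaged 782 ± 137 in sham and 140.9 ± 99.3 FPKM in UUO, 5.55-fold lower. Ces1f, an esterase of the endoplasmic reticulum and the most abundant of them, stood at 372, 353, 379, 249.9 and 349.8 FPKM in sham libraries 1 to 5 and at 54.7, 19.3, 9.32, 111 and 78.5 FPKM in UUO libraries 1 to 5 (chr8:93256236-93279747). UUO 2 and UUO 3 were lowest, UUO 4 was highest, and no UUO library came near Sham 4, the lowest sham library. Ces1f thus fell 6.24-fold, with a log2 difference of -3.08 (SE 0.56, adjusted p = 0.000508). Its neighbour Ces1d, which hydrolyses stored triacylglycerol, fell from 178 ± 35.7 to 30.04 ± 22.6 FPKM, or 5.91-fold, with a log2 difference of -2.98 (SE 0.58, adjusted p = 0.000802). Ces1e fell 6.35-fold, from 44.2 ± 8.94 to 6.95 ± 5.19 FPKM.

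Ces1g, a lipid and drug esterase best known from mouse liver, had the largest ratio of the family, 30.2-fold, from 16.5 ± 10.9 to 0.548 ± 0.519 FPKM. It stood at 26, 8.2, 30.4, 6.91 and 11.2 FPKM in sham libraries 1 to 5 and at 0.138, 0.206, 0.168, 1.07 and 1.16 FPKM in UUO libraries 1 to 5 (chr8:93302369-93337308). The sham libraries themselves spanned 6.91 to 30.4 FPKM, with Sham 1 and Sham 3 high, yet all lay above every UUO library. The 4 Ces1 genes are neighbours on chromosome 8 (chr8:93166068-93337308, GRCm38) and their log2 differences lay between -3.34 and -2.78.

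The second esterase group, Ces2 (chr8:104831572-105021178), was less uniform. Ces2c, an acylglycerol hydrolase, fell from 187 ± 38.8 to 42.6 ± 27.6 FPKM, 4.38-fold, with a log2 difference of -2.32 (SE 0.38, adjusted p = 0.000249). Ces2b fell from 6.63 ± 2.66 to 1.01 ± 0.441 FPKM and Ces2h from 2.61 ± 0.261 to 0.285 ± 0.242 FPKM. Ces2g passed narrowly, from 1.6 ± 0.218 to 1.02 ± 0.413 FPKM (log2 difference of -0.38, SE 0.14, adjusted p = 0.0292), and lost its call without Sham 1, 2 or 3, at adjusted p = 0.0535, 0.0700 and 0.0528. Ces2e was not called, at 4.91 ± 0.972 FPKM in sham and 3.81 ± 1.62 in UUO and adjusted p = 0.168 (limma), although it was called lower under median-of-ratios scaling. Reads of Ces2c could be shared: 42.2% of its 50-base windows also occur in transcripts of other genes.

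Most of the abundant UDP-glycosyltransferases fell, and nearly all scarce ones did not pass the test. Of 16 members 6 were called lower, 1 higher and 9 not called (8 lower and 0 higher with median-of-ratios scaling). As deposited the calls were 37.5% lower and 6.25% higher, beside 16.1% and 58.5% of all tested genes. With median-of-ratios scaling 34.3% of all tested genes were called lower and 34.1% higher. Their summed level averaged 1569.5 ± 232 in sham and 509 ± 168 FPKM in UUO, 3.08-fold lower. Ugt2b38, of the group that glucuronidates steroids and many drugs, stood at 729, 719, 687, 433 and 646 FPKM in sham libraries 1 to 5 and at 154, 101, 49.1, 278 and 189.5 FPKM in UUO libraries 1 to 5 (chr5:87409942-87424203). UUO 3 was lowest and UUO 4 highest, and both lay below Sham 4. Its fall was 4.16-fold, with a log2 difference of -2.25 (SE 0.39, adjusted p = 0.000348). Its close relative Ugt2b37, also abundant, was not called as deposited, at 160.0 ± 20.3 FPKM in sham and 146 ± 29.4 in UUO, but was called lower with median-of-ratios scaling (log2 difference -0.65). Ugt2b5 fell from 42.4 ± 6.79 to 19.4 ± 6.62 FPKM, 2.19-fold. Between 37.4% and 41.7% of the 50-base windows of Ugt2b38 and Ugt2b5 are shared with other genes, so reads could move between these relatives.

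The remaining losses in the family were large. Ugt3a1 and Ugt3a2, whose human counterparts attach N-acetylglucosamine and glucose, fell from 79.1 ± 13 to 9.08 ± 4.24 FPKM (8.72-fold) and from 489 ± 62.6 to 102 ± 53.9 FPKM (4.77-fold). Ugt3a1 stood at 78.1, 98.9, 78.9, 62.6 and 77.1 FPKM in sham libraries 1 to 5 and at 14.4, 4.1, 5.56, 11.3 and 9.93 FPKM in UUO libraries 1 to 5 (chr15:9276888-9315032). UUO 2 and UUO 3 were lowest, and every UUO library lay below every sham library. Ugt8a, which makes galactosylceramide for membranes, fell from 31.8 ± 2.34 to 16.4 ± 3.47 FPKM, 1.94-fold.

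The Ugt1a genes share their last exons, and between 40.3% and 97.9% of the 50-base windows of the 8 listed members are shared with other genes, so their separate values are uncertain. Ugt1a7c held most of the level and fell from 96.5 ± 12.7 to 21 ± 8.8 FPKM, 4.60-fold, with a log2 difference of -2.22 (SE 0.23, adjusted p = 7.62e-06). Summed over the 8 members, the level averaged 119.9 ± 19.04 in sham and 57 ± 19.3 FPKM in UUO. Ugt1a10 was called higher, from 0.632 ± 0.12 to 1.07 ± 0.254 FPKM, but lower with quantile normalization (log2 difference -0.35). Ugt1a1, the bilirubin-conjugating enzyme, was not called at 3.14 ± 2.35 FPKM in sham and 5.01 ± 3.23 in UUO, and was listed at 0 in Sham 2. Ugt1a6b reached 27.5 FPKM in UUO 3, where the other UUO libraries held 2.19 to 6.40, and was not called. The other uncalled members were low in both groups: Ugt1a2, Ugt1a5, Ugt1a6a, Ugt1a9, Ugt2a3 and Ugt2b34 had sham means between 0.827 and 5.06 FPKM and UUO means between 0.520 and 6.88.

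**Figure D2:**
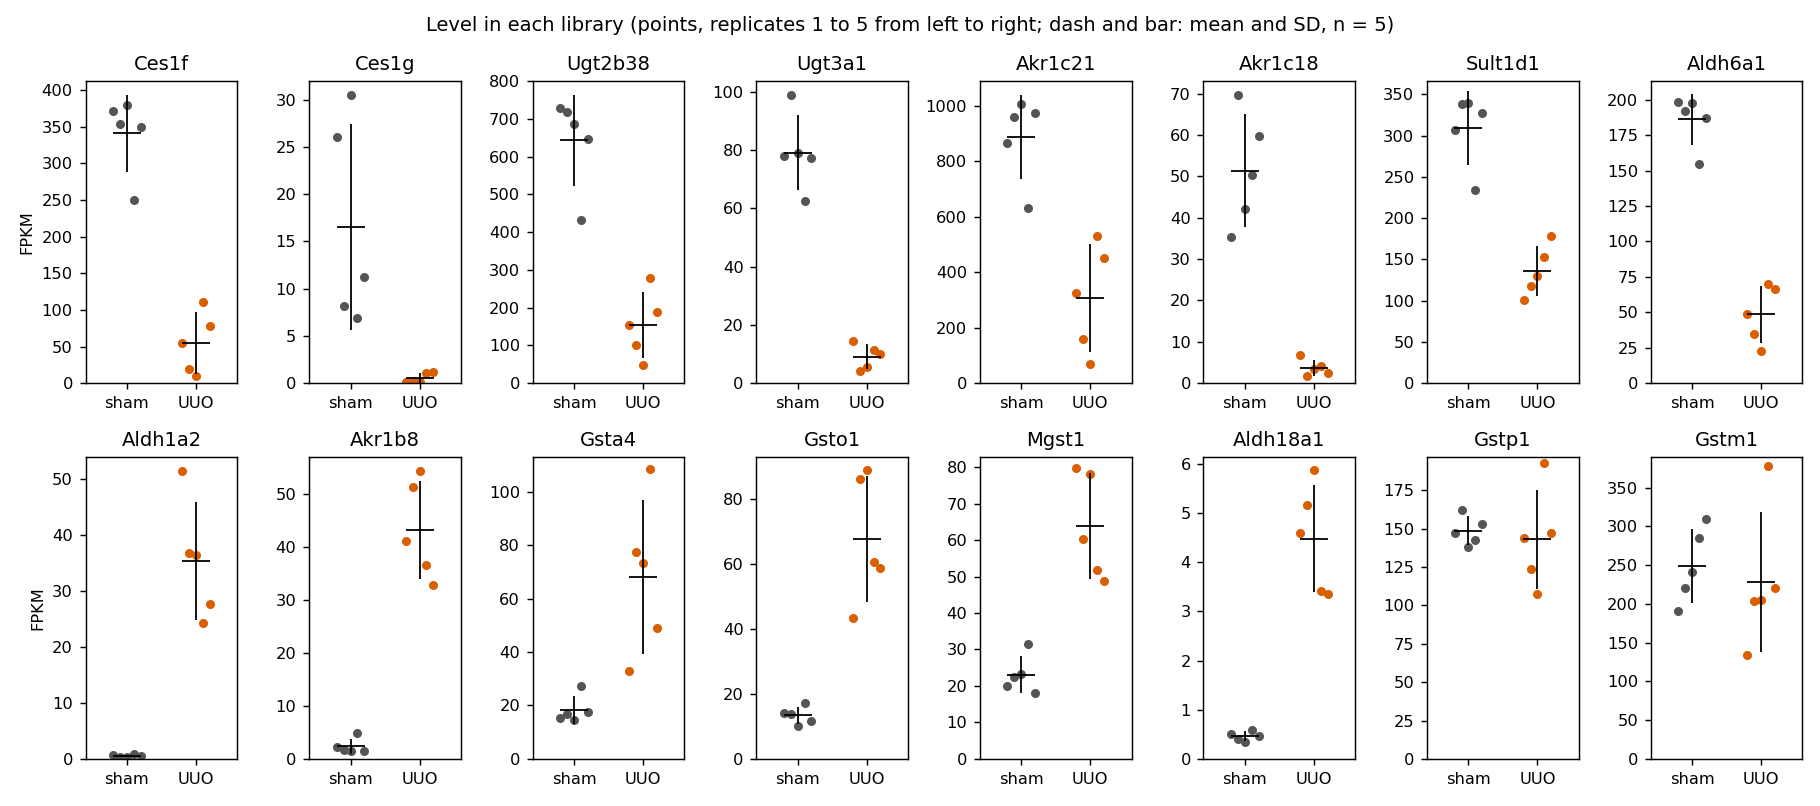
Level in FPKM (vertical axes, from 0) of 16 members in each of 5 sham (grey) and 5 UUO (orange) libraries, with the mean and SD. The 8 genes of the upper row have every UUO library below every sham library, the first 6 of the lower row have every UUO library above, and the groups of Gstp1 and Gstm1 overlap.

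The sulfotransferases moved both ways, with 2 of 7 tested called lower and 4 higher (3 and 3 with median-of-ratios scaling). As deposited these were 28.6% and 57.1%, beside 16.1% and 58.5% of all tested genes. Sult1d1, which sulfates catecholamines and other amines and held most of the family's level, fell 2.28-fold, with a log2 difference of -1.20 (SE 0.16, adjusted p = 5.48e-05). It stood at 307, 338, 339.6, 234 and 327 FPKM in sham libraries 1 to 5 and at 101, 118, 129, 153 and 178 FPKM in UUO libraries 1 to 5 (chr5:87554645-87569027). UUO 1 was lowest and UUO 5 highest, and the groups did not overlap. Sult1b1, a thyroid hormone sulfotransferase next to Sult1d1, fell from 1.45 ± 0.381 to 0.93 ± 0.327 FPKM (log2 difference of -0.35, SE 0.14, adjusted p = 0.0388), a call that was lost without any of 7 single libraries, at adjusted p between 0.0562 and 0.0954. Sult1c2 was not called, at 39.8 ± 3.11 FPKM in sham and 40.1 ± 6.25 in UUO, but was called lower with median-of-ratios scaling (log2 difference -0.50).

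The 4 sulfotransferases called higher were scarce in sham kidneys, and the filter fixed the direction of Sult4a1 and Sult5a1. Sult1a1, a phenol sulfotransferase, rose from 7.32 ± 1.83 to 12.9 ± 2.08 FPKM, 1.77-fold, with a log2 difference of 0.76 (SE 0.16, adjusted p = 0.00108), a call lost with median-of-ratios scaling. Sult2b1, which sulfates cholesterol and related sterols, rose from 0.288 ± 0.282 to 0.986 ± 0.137 FPKM, or from a sham mean of 0.166 FPKM without Sham 4. Sult4a1, a brain-enriched relative with no settled substrate, was at 0 in each of the 5 sham libraries and reached 3.39, 2.01, 2.45, 1.08 and 1.55 FPKM in UUO libraries 1 to 5. Sult5a1 rose from 0.139 ± 0.0341 to 1.03 ± 0.263 FPKM. With quantile normalization the calls of Sult2b1 (log2 difference -0.01) and Sult5a1 (0.16) were lost. Sult2a3, a hydroxysteroid sulfotransferase, was not tested: it was listed at 0 in 4 UUO libraries and at 0.191 to 0.645 FPKM in sham.

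Aldehyde dehydrogenases moved in both directions, 10 lower and 7 higher of 19 tested (10 and 6 with median-of-ratios scaling). As deposited these were 52.6% and 36.8%, beside 16.1% and 58.5% of all tested genes. The family's summed level averaged 919 ± 74.5 in sham and 403 ± 104 FPKM in UUO. The enzymes of valine, lysine, tryptophan, GABA and carnitine metabolism were among those called lower. Aldh6a1, which oxidises methylmalonate semialdehyde in valine breakdown, stood at 199, 192, 197, 155 and 187 FPKM in sham libraries 1 to 5 and at 49.1, 34.4, 22.8, 69.7 and 66.5 FPKM in UUO libraries 1 to 5 (chr12:84430717-84451004). UUO 3 was lowest, UUO 4 and UUO 5 were highest, and all lay below Sham 4, the lowest sham library. Aldh6a1 fell 3.84-fold, with a log2 difference of -2.02 (SE 0.27, adjusted p = 4.69e-05). Aldh9a1, of carnitine synthesis, fell from 169 ± 21.5 to 66.9 ± 27.2 FPKM, and Aldh8a1, of the kynurenine route of tryptophan breakdown, fell from 92.6 ± 8.83 to 27.8 ± 14 FPKM. Aldh5a1, which oxidises succinate semialdehyde from the transmitter GABA, fell from 20.3 ± 1.47 to 6.07 ± 1.6 FPKM, and the lysine-pathway enzyme Aldh7a1 fell from 57.1 ± 4.6 to 27.7 ± 8.39 FPKM.

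The enzymes at either end of proline metabolism went opposite ways. Aldh4a1, the mitochondrial enzyme that completes proline breakdown to glutamate, fell 3.94-fold from 103 ± 12 to 26.2 ± 7.29 FPKM, with a log2 difference of -1.97 (SE 0.18, adjusted p = 3.66e-06). Aldh18a1, which makes the precursor of new proline from glutamate, stood at 0.509, 0.412, 0.335, 0.595 and 0.464 FPKM in sham libraries 1 to 5 and at 4.59, 5.16, 5.87, 3.42 and 3.35 FPKM in UUO libraries 1 to 5 (chr19:40550257-40588463). Every UUO library was above every sham library, and UUO 3 was highest. Its rise was 9.68-fold, with a log2 difference of 1.88 (SE 0.13, adjusted p = 5.44e-07). In Aldh4a1 45% of the 50-base windows are shared, with an overlapping gene model, Gm21969.

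Enzymes of general aldehyde clearance were called lower as well. Aldh2, the mitochondrial enzyme that oxidises acetaldehyde, fell from 109 ± 9.45 to 54.5 ± 10.9 FPKM, 2.0-fold. The fatty aldehyde dehydrogenase Aldh3a2 fell from 45.6 ± 4.83 to 21.4 ± 3.45 FPKM, and Aldh1l1, which oxidises formyltetrahydrofolate in the cytosol, fell from 104 ± 11.2 to 39.3 ± 12 FPKM. Its mitochondrial counterpart Aldh1l2 was too low to be tested, at 0.318 ± 0.106 FPKM in sham and 0.726 ± 0.215 in UUO. Aldh16a1 fell from 9.75 ± 0.68 to 7.42 ± 0.939 FPKM. Aldh3b3 was not tested, at 0.535 ± 0.216 FPKM in sham and 0.234 ± 0.122 in UUO.

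On the log2(FPKM + 1) scale the largest rise of any member was in Aldh1a2, which oxidises retinaldehyde to retinoic acid. It stood at 0.649, 0.431, 0.332, 0.812 and 0.458 FPKM in sham libraries 1 to 5 and at 51.5, 36.9, 36.5, 24.4 and 27.6 FPKM in UUO libraries 1 to 5 (chr9:71215789-71296243). Every UUO library lay far above every sham library, UUO 1 was highest and UUO 4 lowest of them. The mean rose 65.9-fold, from 0.536 ± 0.192 to 35.4 ± 10.5 FPKM, with a log2 difference of 4.53 (SE 0.18, adjusted p = 2.60e-08). Aldh1a1, which makes retinoic acid too, rose from 1.69 ± 0.664 to 4.16 ± 1.18 FPKM, 2.47-fold, with UUO 1 within the sham range and no call under quantile normalization. Aldh1a3, the other retinaldehyde dehydrogenase, was not called at 4.29 ± 9.23 FPKM in sham and 0.988 ± 0.335 in UUO: Sham 4 held 20.8 FPKM, the other sham libraries 0.0267 to 0.433 and the UUO libraries 0.629 to 1.35. Without Sham 4 it was called higher in UUO, with a log2 difference of 0.76 and adjusted p = 0.000754 (limma). Aldh1a7, a close relative of Aldh1a1 that lies beside it, was not called at 6.66 ± 1.78 FPKM in sham and 11 ± 5.75 in UUO.

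With a pseudocount of 0.1 the rise of Gsta1, described with the glutathione S-transferases, was larger, at 6.24 against 5.80 for Aldh1a2. A stretch of the Aldh1a2 promoter is shown because this gene rose most on the log2(FPKM + 1) scale. The stretch comes from the RefSeq promoter windows (GRCm38.p6, 250 bases before to 50 after the start), read 5′ to 3′ in the direction of the gene. Capitals mark the single match to TGACNNNGC on either strand, the core of the antioxidant response element bound by NFE2L2, at position -112 from the start.
Aldh1a2 (chr9:71215652-71215711, plus strand): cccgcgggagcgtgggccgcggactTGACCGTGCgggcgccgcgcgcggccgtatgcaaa
Windows were found for 81 of the 98 members, 96 windows in all, and 7.29% of these held the motif, against 12.4% of 32851 windows of all genes. The 7 members with a match were Aldh1a2 and Mgst1, called higher, Aldh9a1, called lower, and Akr1c19, Gsta3, Gstm5 and Gstm7, not called. A match is a description of the letters only. Of the other aldehyde dehydrogenases called higher, Aldh3b1 rose from 5.52 ± 1.31 to 11.5 ± 1.94 FPKM and Aldh1b1 from 1.22 ± 0.362 to 2.1 ± 0.544 FPKM. The Aldh1b1 call was lost with median-of-ratios scaling (log2 difference 0.17) and with quantile normalization, where the direction turned (-0.22). Aldh3a1, the abundant aldehyde dehydrogenase of the cornea, rose from 0.262 ± 0.408 to 3.96 ± 3.55 FPKM, with UUO 4 at 9.91 FPKM and Sham 4 at 0.976. Without these libraries the means of Aldh3a1 were 2.47 FPKM in UUO and 0.0833 in sham. Aldh3b2 rose from 0.406 ± 0.362 to 2.88 ± 1.75 FPKM, or from a sham mean of 0.258 FPKM without Sham 4, and its call was lost with quantile normalization (log2 difference 0.72). UUO 4 was also highest and UUO 1 lowest of the UUO libraries in the summed urothelial markers, at 289 and 31.3 FPKM, and their part in Aldh3a1 and Aldh3b2 was not tested.

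All 3 alcohol dehydrogenases were called, though the filter fixed the direction of Adh7. Adh1, which oxidises ethanol and retinol and held most of the family's level, fell modestly from 240.2 ± 36.2 to 169.9 ± 27.6 FPKM, with a log2 difference of -0.50 (SE 0.14, adjusted p = 0.00642). UUO 4 at 211 FPKM lay above Sham 4 at 189, so the groups overlapped. Adh5, which clears formaldehyde and nitrosothiols through glutathione adducts, fell from 48.8 ± 4.54 to 31 ± 4.48 FPKM, 1.57-fold. Adh7, the retinol-active enzyme of stomach lining, rose from 0.2001 ± 0.153 to 2.33 ± 1.64 FPKM, with UUO 4 at 5.05 FPKM and UUO 1 at 0.812.

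Of the 14 aldo-keto reductases tested 7 were called lower and 2 higher (10 and 1 with median-of-ratios scaling). As deposited these were 50% and 14.3%, beside 16.1% and 58.5% of all tested genes. With median-of-ratios scaling 34.3% of all tested genes were called lower and 34.1% higher. The 7 Akr1c genes, most of which act on steroids, averaged 1105 ± 173 FPKM in sum in sham and 349 ± 205 in UUO. Akr1c21, a hydroxysteroid dehydrogenase of mouse kidney and the most abundant member of all 98, stood at 867, 959, 1005, 629 and 975 FPKM in sham libraries 1 to 5 and at 324, 159, 69.5, 531 and 452 FPKM in UUO libraries 1 to 5 (chr13:4574075-4586541). UUO 3 was lowest by far, and UUO 4 at 531 FPKM was the nearest to Sham 4 at 629. Akr1c21 fell 2.89-fold, with a log2 difference of -1.84 (SE 0.48, adjusted p = 0.00511). Akr1c18, which inactivates progesterone, stood at 35.3, 69.6, 42, 50.3 and 59.7 FPKM in sham libraries 1 to 5 and at 6.81, 1.8, 3.32, 4.05 and 2.42 FPKM in UUO libraries 1 to 5 (chr13:4132615-4150654). The 5 UUO libraries all lay below the lowest sham library, Sham 1. The fall was 13.96-fold, with a log2 difference of -3.54 (SE 0.27, adjusted p = 9.71e-07).

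Akr1c14, a hydroxysteroid dehydrogenase acting on dihydrotestosterone and related steroids, fell 8.30-fold from 150.4 ± 19.2 to 18.1 ± 10.8 FPKM. Akr1d1, the steroid 5-beta-reductase of bile acid synthesis, fell 6.88-fold from 23 ± 3.28 to 3.34 ± 2.06 FPKM. Akr1a1, which reduces aldehydes including glucuronate on the way to vitamin C, fell from 497 ± 67.4 to 273 ± 74.1 FPKM (1.82-fold), and Akr7a5, which reduces succinate semialdehyde and aflatoxin aldehydes, from 158 ± 23.5 to 60.8 ± 20.6 FPKM (2.59-fold). Akr1e1 passed narrowly, from 25.8 ± 3.04 to 19.9 ± 4.44 FPKM (log2 difference of -0.38, SE 0.15, adjusted p = 0.0366), and lost its call without any of 7 single libraries, at adjusted p between 0.0569 and 0.0821.

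The Akr1c genes lie in 1 block with Akr1e1 on chromosome 13 (chr13:4049011-4609174), and the block did not change as a unit. As deposited, 4 of its 8 members were called lower, 2 were not called, 1 was called higher and 1, Akr1c20, was not tested. Akr1c20 stood at 0.122 ± 0.126 FPKM in sham and 0.628 ± 0.307 in UUO. Akr1c12 and Akr1c19 were not called, at 3.17 ± 0.52 FPKM in sham and 3.33 ± 0.66 in UUO and at 3.94 ± 0.41 FPKM in sham and 3.3 ± 0.482 in UUO. Both were called lower with median-of-ratios scaling (log2 differences -0.34 and -0.60) and with quantile normalization (-0.55 and -0.77). Akr1c13 was called higher, from 9.12 ± 0.652 to 12.4 ± 1.42 FPKM, but its log2 difference was -0.07 and not called with median-of-ratios scaling, and 28.6% of its 50-base windows are shared with other genes.

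The aldo-keto reductase with the largest rise was Akr1b8, a reductase first found as a gene induced by fibroblast growth factor. It stood at 2.15, 1.77, 1.57, 4.8 and 1.46 FPKM in sham libraries 1 to 5 and at 41, 51.3, 54.3, 36.5 and 32.8 FPKM in UUO libraries 1 to 5 (chr6:34354119-34368463). Every UUO library lay above every sham library, and Sham 4 was the highest of the sham libraries. Akr1b8 rose 18.4-fold, with a log2 difference of 3.77 (SE 0.23, adjusted p = 2.64e-07). Akr1b3, the aldose reductase that makes the osmolyte sorbitol in the medulla, was not called at 20.9 ± 25.1 FPKM in sham and 16 ± 3.47 in UUO. Sham 4 held 65.8 FPKM and the other sham libraries 8.49 to 11.4, and without Sham 4 it was called higher in UUO (log2 difference 0.65, limma adjusted p = 0.00316). Akr1b10 was not called, at 10.4 ± 0.721 FPKM in sham and 11.4 ± 0.898 in UUO. Its call depended on scaling: lower with median-of-ratios (log2 difference -0.35) and quantile scaling (-0.22), higher with rescaling to equal sums (0.30). Akr1b7, an aldose reductase-like protein known from mouse adrenal cortex and vas deferens, was not called: UUO 3 held 36.8 FPKM, the other UUO libraries 2.16 to 5.09 and the sham libraries 1.15 to 2.32. It was called higher without UUO 3 (log2 difference 0.62, limma adjusted p = 0.014), without UUO 5 (1.51, adjusted p = 0.0357), with a pseudocount of 0.1 and with rescaling to equal sums. The adrenal marker Star was at 3.21 FPKM in UUO 3 and at 0.401 to 0.791 in the other UUO libraries. Mc2r was instead highest in UUO 1, at 1.40 FPKM, against 0 to 0.488 in the other UUO libraries. Of 8 adrenal cortex markers 2 were listed, Star and Mc2r, both too low to be tested, and their part was not tested.

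**Figure D3:**
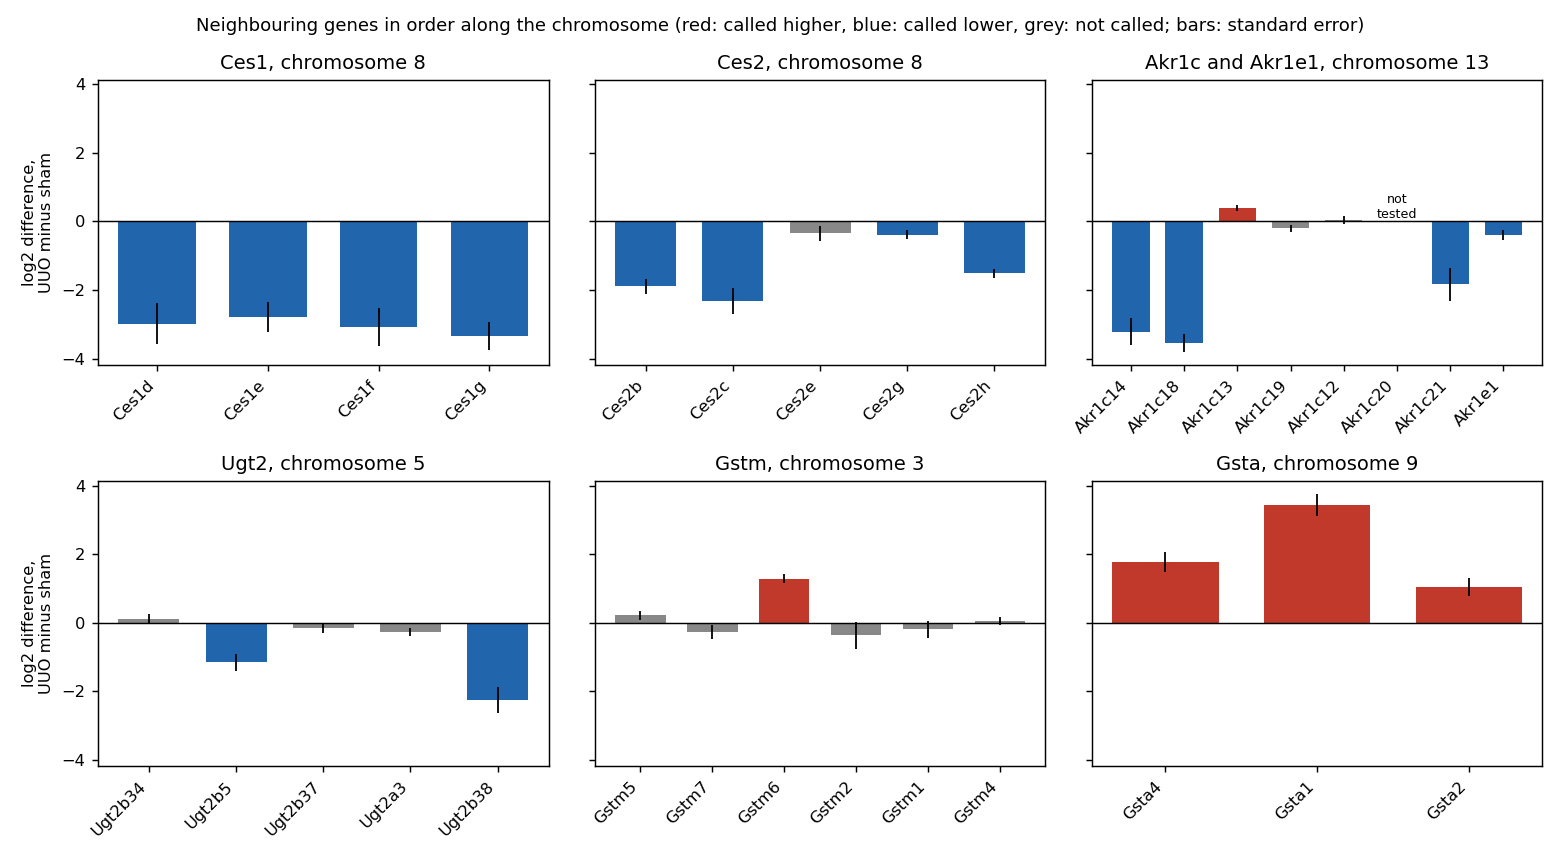
Log2 difference between UUO and sham (vertical axis, shared by all panels, bars of standard error) of members in 6 blocks of neighbouring genes, in order along the chromosome (horizontal axis; distances not to scale). Blue bars were called lower, red higher and grey not called. All 4 Ces1 genes fell and all 3 Gsta genes of chromosome 9 rose, while the Akr1c and Ugt2 blocks mixed called and uncalled genes.

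Flavin monooxygenases, which oxidise nitrogen and sulfur in drugs and trimethylamine, had 3 of 4 members called lower, beside 16.1% of all tested genes. Fmo2 fell 2.65-fold from 50.6 ± 5.45 to 19.1 ± 6.76 FPKM, with a log2 difference of -1.42 (SE 0.21, adjusted p = 9.69e-05). Fmo5 fell from 34.1 ± 4.88 to 16.1 ± 9.22 FPKM and stood at 38.6, 31.2, 36.6, 27 and 37.3 FPKM in sham libraries 1 to 5 and at 8.0, 14.6, 11.9, 31.9 and 14 FPKM in UUO libraries 1 to 5 (chr3:97628804-97655282). UUO 4 alone lay within the sham range. Fmo1 fell from 59.2 ± 8.31 to 33.2 ± 17.1 FPKM, but UUO 5 at 52.1 FPKM lay above Sham 4 at 51.4, and Fmo4 was not called at 6.62 ± 0.772 FPKM in sham and 6.27 ± 2.59 in UUO.

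The glutathione S-transferases were divided, and their summed levels overlapped between the groups. As deposited 6 of 20 were called higher and 4 lower, but 5 higher and 11 lower with median-of-ratios scaling and 7 higher and 8 lower with quantile normalization. The deposited counts were 30% and 20%, beside 58.5% and 16.1% of all tested genes. The family's summed level was 828 ± 54.6 FPKM in sham and 923 ± 213 in UUO. Gsta4, the isoform that clears 4-hydroxynonenal from lipid peroxidation, stood at 15.3, 16.9, 14.5, 27.2 and 17.4 FPKM in sham libraries 1 to 5 and at 33, 77.3, 73.2, 108 and 48.8 FPKM in UUO libraries 1 to 5 (chr9:78182774-78209349). Each UUO library was above Sham 4, the highest sham library, and UUO 4 was highest. Gsta4 rose 3.73-fold, with a log2 difference of 1.77 (SE 0.29, adjusted p = 0.000222).

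The omega-class enzyme Gsto1, a thioltransferase that also reduces arsenic compounds, stood at 14.1, 14, 10.2, 17.2 and 11.6 FPKM in sham libraries 1 to 5 and at 43.4, 86.1, 89.1, 60.7 and 58.9 FPKM in UUO libraries 1 to 5 (chr19:47854970-47864790). UUO 2 and UUO 3 were highest, and every UUO library lay above every sham library. Gsto1 rose 5.05-fold, with a log2 difference of 2.22 (SE 0.20, adjusted p = 3.06e-06). Gsta2, an alpha-class enzyme in the block of Gsta4 on chromosome 9, rose 2.26-fold from 59.2 ± 7.79 to 134 ± 61.2 FPKM. The call of Gsta2 was lost with median-of-ratios scaling, and 47.4% of its 50-base windows are shared with other genes, 32.9% with Gsta1. Gsta1 was listed at 0 in 3 sham libraries and at no more than 0.145 FPKM in the others, and reached 11.99 ± 8.12 FPKM in UUO. The filter fixed the direction of its call. As 89.7% of the 50-base windows of Gsta1 are shared with other genes, 82.9% with Gm3776, its reads could belong elsewhere. Gstp3 rose from 0.298 ± 0.218 to 3.43 ± 0.807 FPKM and Gstm6 from 0.466 ± 0.274 to 2.54 ± 0.408 FPKM, both from under 1 FPKM.

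Gstm1 and Gstp1, the most abundant glutathione S-transferases by their mean over all 10 libraries, were not called as deposited and were called lower with median-of-ratios scaling, with log2 differences of -0.70 and -0.59. Gstm1, which conjugates electrophiles such as epoxides, stood at 191, 220.3, 242, 285 and 309 FPKM in sham libraries 1 to 5 and at 134, 204, 206, 378 and 220.4 FPKM in UUO libraries 1 to 5 (chr3:108012255-108017973). The groups overlapped, with UUO 1 below and UUO 4 above all sham libraries, and the log2 difference was -0.19 (adjusted p = 0.493). Gstp1, the pi-class enzyme, was not called at 149 ± 9.5 FPKM in sham and 143 ± 32.1 in UUO, with a log2 difference of -0.08 (SE 0.14, adjusted p = 0.607), and Gstm5 was not called at 75.6 ± 10.6 FPKM in sham and 88.6 ± 15.4 in UUO, but was called higher with quantile normalization and with rescaling to equal sums. Gstm2 was not called, with Sham 4 at 79.9 FPKM and the other sham libraries at 17.04 to 20.3. Gsta3, Gstm4, Gstm7, Gsto2 and Gstp2 were not called either, with log2 differences between -0.42 and 0.05. All of these but Gsto2 were called lower with median-of-ratios scaling. Sharing of reads was not gauged for Gstp1 and Gstp2.

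Those called lower included enzymes with other metabolic duties. Gstz1, the maleylacetoacetate isomerase of tyrosine breakdown, fell 3.45-fold from 33.9 ± 4.15 to 9.82 ± 3.66 FPKM, with a log2 difference of -1.76 (SE 0.22, adjusted p = 3.27e-05). Gstk1, of mitochondria and peroxisomes, fell 2.18-fold from 33 ± 3.71 to 15.1 ± 3.74 FPKM. The theta-class Gstt2 and Gstt3 fell from 46.1 ± 6.63 to 24.2 ± 5.7 FPKM and from 13.7 ± 0.87 to 10.03 ± 1.45 FPKM, while Gstt1 was not called at 59.4 ± 4.95 FPKM in sham and 53.9 ± 6.15 in UUO. With median-of-ratios scaling Gstt1 was called lower (log2 difference -0.64).

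The membrane-bound enzymes parted. Mgst1, which protects membranes against lipid peroxides, stood at 20.1, 22.5, 23.1, 31.4 and 18.2 FPKM in sham libraries 1 to 5 and at 79.7, 60.4, 78.2, 51.7 and 48.8 FPKM in UUO libraries 1 to 5 (chr6:138140316-138156755). All UUO libraries were above Sham 4, the highest sham library, and UUO 1 and UUO 3 were highest. It rose 2.76-fold, with a log2 difference of 1.42 (SE 0.17, adjusted p = 2.66e-05). Mgst3, a glutathione peroxidase and transferase of membranes, fell 1.28-fold from 75.9 ± 5.18 to 59.4 ± 8.38 FPKM, a call lost with quantile normalization and with rescaling to equal sums. Mgst1 has 2 promoter windows, and the antioxidant response letters lie on the opposite strand of a window at position -56 from its start. That start and the stretch shown lie inside the listed gene, not before it.
Mgst1 (chr6:138140461-138140490, plus strand): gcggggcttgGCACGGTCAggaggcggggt

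The losses were deepest in the same libraries. Among the 43 members called lower UUO 3 was the lowest UUO library in 31, while UUO 4 was the highest in 26 and UUO 5 in 14. The median over those members was 30.6%, 30.9%, 22.2%, 50.2% and 49.3% of the sham mean in UUO libraries 1 to 5. The 17 proximal tubule markers stood at 30.7%, 19.5%, 9.40%, 43.5% and 44.5%, with a median log2 difference of -1.89, and none was listed at 0 in any library. Of the 94 tested members 15 lay below that median. Called-lower Ces members were lower than the markers in every UUO library, at 16.2%, 5.98%, 3.38%, 31.8% and 22.2%, and called-lower Aldh members higher, at 37.9%, 28.3%, 22.7%, 50.5% and 52.9%. The part of proximal tubule content in these losses was not tested.

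**Figure D4:**
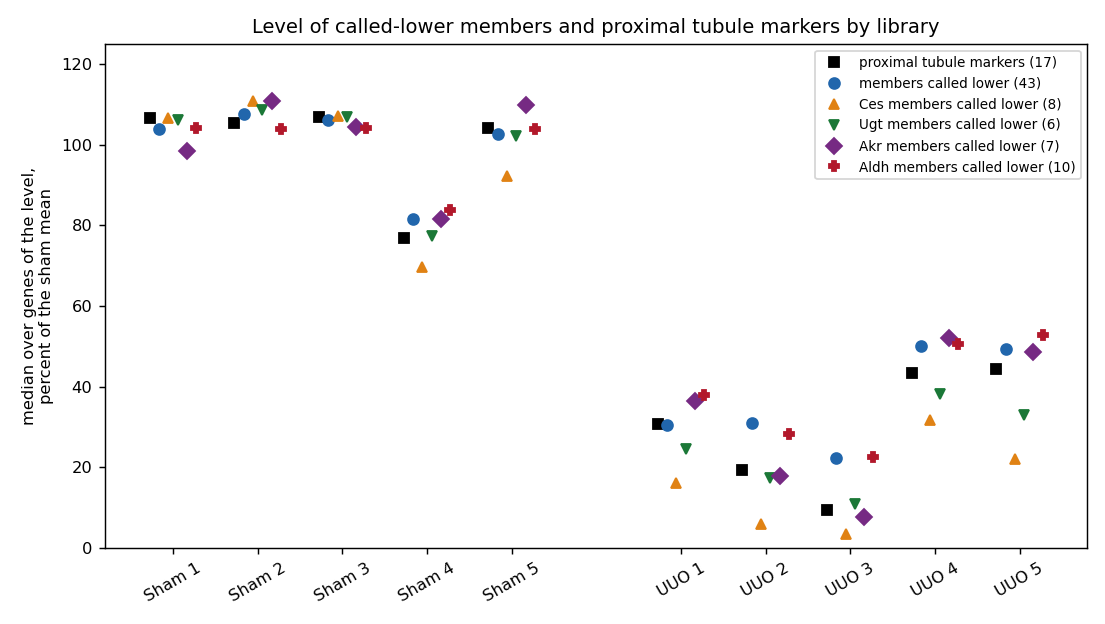
Median over genes of the level as a percentage of the sham mean (vertical axis) in each of 10 libraries (horizontal axis), for all members called lower (43), for those of the Ces, Ugt, Akr and Aldh families, and for 17 proximal tubule markers. UUO 3 is lowest and UUO 4 and UUO 5 are highest in every set, Sham 4 is the lowest sham library, and the Ces members lie under the markers in all 5 UUO libraries.

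The gains had no such common order: among the 22 members called higher each UUO library was highest in 3 to 5. The marker lists of other cell types moved with the group. All 11 macrophage markers were called higher, with sums of 35.0 to 55.4 FPKM in sham and 781 to 1443 in UUO, and all 9 fibroblast markers, with sums of 16.4 to 28.7 and 324 to 657. Of 7 urothelial markers 6 were called higher. Of 8 endothelial markers 5 were called higher, a share of 62.5% near the 58.5% of all tested genes, and 2 higher and 1 lower with median-of-ratios scaling. Called lower were 6 of 7 markers of the thick ascending limb and distal tubule and 5 of 8 collecting duct markers, with none of either list called higher. The part of these cells in the gains was not tested.

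Sham 4 was the lowest sham library in 37 of the 43 members called lower and the highest in 14 of the 22 called higher. Of 80 members with a sham mean of at least 1 FPKM, Sham 4 lay below the range of the other sham libraries in 48, above it in 15 and within it in 17. It was at least 1.5 times the mean of the other sham libraries in 8: Aldh1a3, Akr1b3, Gstm2, Akr1b8, Aldh1a1, Gsta4, Aldh1a7 and Sult1a1. Sham 4 was a median of 78.0% of the other sham libraries over the members called lower. Proximal tubule markers stood at a median of 76.9% of the sham mean in Sham 4, against 104% to 107% in the others.

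**Figure D5:**
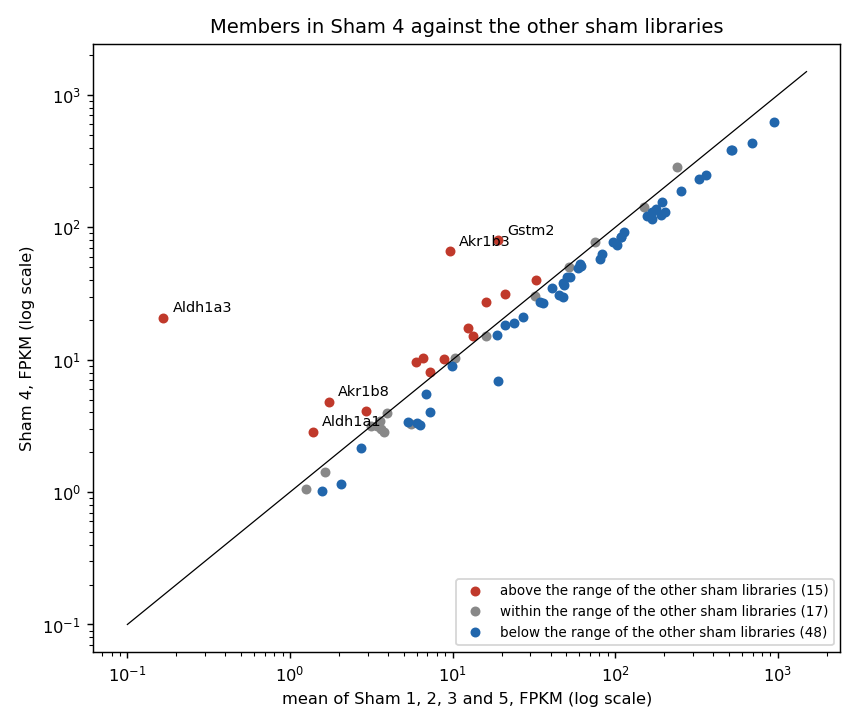
Level in Sham 4 (vertical axis, FPKM, log scale) against the mean of Sham 1, 2, 3 and 5 (horizontal axis, FPKM, log scale) for 80 members with a sham mean of at least 1 FPKM, where the line marks equal levels. Most points lie just under the line (48 below the range of the other sham libraries), while Aldh1a3, Akr1b3 and Gstm2 lie far above it.

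Genes that feed these enzymes were followed in lists chosen by role. For the counts of each list, 16.1% of all tested genes were called lower and 58.5% higher as deposited. With median-of-ratios scaling these shares were 34.3% and 34.1%. Of 12 genes for the sugar and sulfate donors and their removal 8 were called lower and 2 higher (10 and 1 with median-of-ratios scaling), with a median log2 difference of -0.59 against 0.40 for all tested genes. Papss2, which makes the sulfate donor PAPS, fell from 102 ± 8.09 to 33.5 ± 8.33 FPKM, and Bpnt1, which clears the used donor, from 137 ± 9.16 to 45.9 ± 7.42 FPKM. Arsa, a lysosomal sulfatase, rose from 2.53 ± 0.945 to 6.98 ± 1.61 FPKM. Ugdh, the source of UDP-glucuronic acid, fell slightly from 21.7 ± 1.68 to 17.1 ± 2.47 FPKM, with overlapping groups.

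Glutathione supply and turnover had 9 of 13 genes lower and 3 higher (10 and 2 with median-of-ratios scaling) and a median log2 difference of -1.07. Gclc and Gclm, the subunits of the rate-limiting ligase, fell from 116 ± 21.6 to 43.4 ± 4.91 FPKM and from 51.9 ± 13 to 21.1 ± 5.17 FPKM. Ggt1, the brush border enzyme that splits glutathione conjugates, fell from 262 ± 34.2 to 80.7 ± 39.6 FPKM, and its relative Ggt7 rose from 0.134 ± 0.0903 to 1.45 ± 0.194 FPKM. All 12 genes of mercapturic acid and amino acid conjugation were called lower, under the median-of-ratios and quantile scalings too and 11 of them with rescaling to equal sums, with a median log2 difference of -1.86. Acsm3, a medium-chain acyl-CoA synthetase, fell from 271 ± 21.7 to 19.7 ± 11.2 FPKM, and Acy3, which deacetylates mercapturic acids, from 1288 ± 183 to 308 ± 222 FPKM.

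Methyl and acetyl conjugation had 7 of 10 genes lower and 2 higher (8 and 1 with median-of-ratios scaling) and a median log2 difference of -0.77. Inmt, which methylates tryptamine and other amines, fell from 506 ± 106 to 85.9 ± 63.2 FPKM, while Nnmt, which methylates nicotinamide, rose from 0.552 ± 0.619 to 6.84 ± 1.78 FPKM, or from a sham mean of 0.279 FPKM without Sham 4. Other carbonyl, quinone and epoxide enzymes split, 12 lower and 6 higher of 20 (13 and 5 with median-of-ratios scaling), with a median of -0.29 on the log2 scale. The soluble epoxide hydrolase Ephx2 and the carbonyl reductase Dcxr fell from 217 ± 26.6 to 92.3 ± 40.2 FPKM and from 96.6 ± 11.8 to 36.1 ± 15.3 FPKM, and the carbonyl reductase Cbr3 rose from 0.725 ± 0.393 to 6.75 ± 1.22 FPKM. Of 12 further esterases 6 were lower and 3 higher (8 and 1 with median-of-ratios scaling), with a median log2 difference of -0.42. Aadac, a microsomal deacetylase, fell from 106 ± 19.8 to 54.1 ± 14 FPKM, and the depalmitoylating pair parted, with Lypla1 lower, from 67.3 ± 5.3 to 21 ± 3.4 FPKM, and Lypla2 higher, from 14.5 ± 0.765 to 24.7 ± 1.83 FPKM.

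Of 14 tested retinoid genes outside the Aldh family 9 were called higher and 2 lower (7 and 4 with median-of-ratios scaling). The 9 were 64.3%, beside 58.5% of all tested genes, and the median log2 difference was 0.79. The retinol uptake receptor Stra6, chosen after its values were seen, rose from 0.113 ± 0.0614 to 9.61 ± 2.74 FPKM. Rdh10, which makes retinaldehyde from retinol and was chosen after its values were seen, rose from 12.8 ± 0.444 to 33.1 ± 7.89 FPKM. Rdh16, another retinol dehydrogenase, fell from 21.4 ± 3.55 to 8.67 ± 3.99 FPKM. Dhrs3, which returns retinaldehyde to retinol, was called higher at 33.3 ± 2.39 FPKM in sham and 38.6 ± 3.39 in UUO but lower with median-of-ratios scaling.

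Of 17 regulators 9 were called higher and 5 lower, or 5 and 6 with median-of-ratios scaling, and the median log2 difference was 0.26 as deposited and -0.21 with that scaling. The 9 and 5 are 52.9% and 29.4%, beside 58.5% and 16.1% of all tested genes as deposited. Hnf4a, a master factor of tubular and hepatic enzyme genes, fell from 134 ± 17.4 to 66.4 ± 24.7 FPKM, and Ppara, of fatty acid metabolism, fell from 8.25 ± 0.878 to 2.71 ± 1.49 FPKM. Nfe2l2, which drives antioxidant genes, rose from 21.1 ± 2.3 to 45.5 ± 3.21 FPKM, and the aryl hydrocarbon receptor gene Ahr rose from 1.24 ± 0.345 to 5.1 ± 0.905 FPKM. Nqo1, a usual target of Nfe2l2, fell from 35.3 ± 2.62 to 22.2 ± 9.75 FPKM, with overlapping groups.

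Transporters of conjugates were called higher in 7 of 13 cases and lower in 6 (6 and 6 with median-of-ratios scaling), with a median log2 difference of 0.36. These are 53.8% higher and 46.2% lower, beside 58.5% and 16.1% of all tested genes. The organic anion uptake carriers Slc22a6 and Slc22a8 fell from 236 ± 45.9 to 49.3 ± 38.5 FPKM and from 93.7 ± 21 to 17.7 ± 15 FPKM. Abcc2, the export pump of the brush border, fell from 46.3 ± 2.15 to 23.8 ± 9.96 FPKM. Abcc3, a basolateral export pump in other tissues, rose from 0.355 ± 0.38 to 5.0 ± 1.11 FPKM, with Sham 4 at 1.02 FPKM and a sham mean of 0.189 without it, and Abcc4 rose from 4.01 ± 2.87 to 14.4 ± 1.88 FPKM. Ugdh, Gclc, Gclm, Nfe2l2, Nqo1, Abcc2 and Abcc4 were chosen after their values were seen.

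No transcript of a member was called as changing its share of its gene's level. Among 42 members with at least 2 listed transcripts 79 transcripts of 35 genes could be tested. None was called at an adjusted p below 0.05 and a difference of at least 10 percentage points, where 0.75% of 14003 transcripts of all genes were called. The lowest adjusted p among member transcripts was 0.205 (limma), and 8 had an unadjusted p below 0.05.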

How the data were processed

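The authors deposited tables with a value for each protein-coding gene and transcript in each library, with no unit in the header. The deposited values were taken as FPKM from their decimals and column sums. Were they TPM, a single factor per library would separate the scales, which the rescaling alternatives cover. Per the submitters' processing notes, cutadapt, HISAT2 and StringTie were run on GRCm38. No tool version or annotation release is given in the sources used here. Libraries were stranded, per the labels' protocols. Columns were matched to samples by the codes in the titles, which also gave the groups.

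Members were selected by symbol. Members and gene lists were chosen with earlier results of these data known. Tested genes reached 0.5 FPKM in 5 libraries or more, or in 4 or more where 1 library was left out. They were compared as log2(FPKM + 1) in limma 3.58.1 (lmFit, eBayes with trend, R 4.3.3), with Benjamini-Hochberg adjustment over all 13202 genes tested. Log2 differences are on that scale and understate changes of low genes, whereas folds are ratios of mean FPKM. Halved and doubled refer to called genes whose log2 difference reached 1 in size. Transcript shares, arcsine square-root transformed, were tested in limma where the gene summed to 1 FPKM or more in every library and the transcript's share was 5% or more in either group. Shared reads were gauged as the percentage of 50-base windows of a gene's transcripts that occur in other genes' transcripts (GENCODE M21). All 98 members were matched by gene ID, 91 at the same coordinates, and 165 of their 172 listed transcripts were found. For Gstp1, Gstp2, Sult1a1, Aldh3b1, Aldh3b2 and Aldh3b3 no transcript was found, so their sharing was not gauged. In RefSeq windows motifs were searched on both strands, among them TGACNNNGC, CAAAGTCCA (found in 1.04% of member and 0.475% of all windows) and GCGTG (28.1% and 32.4%).

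Genes to be named were the called members of each family and list that changed most or were most abundant, where the higher group averaged 1 FPKM or more. Other members were named to account for the whole set. Some listed genes and 1 motif are not reported here. The fit was tested on simulated data. No libraries held identical values. Alternatives were a pseudocount of 0.1, no filter, a filter of 1 FPKM, median-of-ratios, quantile and equal-sum scaling, limma without trend, a replicate block and leaving out each library. Figures were drawn in Python 3.11.15 (pandas 2.3.3, numpy 2.4.6, matplotlib 3.10.9).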

Additional observations from a re-analysis of the deposited data

Results flagged for a closer look

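Among 134 groups of 5 libraries of named genes, 15 held a library that lay apart from the other 4 (gap over range above 0.71). Chance flags about 1 in 20 independent groups, but these groups share the same 10 libraries, so that rate does not apply. Of the 15 flagged, 13 were Sham 4. In members, Sham 4 was low in Ces1f (249.9 FPKM, others 349.8 to 379), Ugt2b38 (433, others 646 to 729) and Aldh6a1 (155, others 187 to 199), and high in Akr1b8 (4.803, others 1.46 to 2.15), Gsta4 (27.2, others 14.5 to 17.4) and Aldh3a1 (0.976, others 0 to 0.225). In related genes it was low in Ggt1 (203, others 269.7 to 290.2), Ephx2 (171, others 223 to 240.1), Dcxr (76.1, others 97.7 to 105) and Aadac (71.4, others 111 to 121), and high in Arsa (4.20, others 1.97 to 2.30), Nnmt (1.64, others 0.162 to 0.427) and Abcc3 (1.02, others 0.0739 to 0.290). UUO 4 was high in Fmo5 (31.9 FPKM, others 7.996 to 14.6) and UUO 5 in Ppara (5.30, others 1.68 to 2.57). All 22 members called higher and 40 of the 43 called lower kept their call without each single library. Of the 22, Gsta1, Sult4a1, Sult5a1 and Adh7 could pass the filter only through their UUO values in these fits too. Their kept direction is therefore no separate result.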

How the results depend on the processing

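The counts of members called moved with scaling as given above, and stayed between 22 and 26 higher and between 40 and 45 lower when each library was left out in turn. Fits without 1 library used a filter of 4 libraries, which let Akr1c20 and Aldh1l2 into some of the counts of gains. Over all genes 7727 were called higher and 2130 lower, against 4507 and 4522 with median-of-ratios scaling and 3908 and 4825 with quantile normalization, and 7451 to 8199 and 1988 to 2167 with single libraries left out. Of 1202 values of 67 named genes 1176 kept direction and call, 23 lost the call and 3 reversed: Dhrs3 (-0.29) and Akr1c13 (-0.072) with median-of-ratios scaling and Ugt1a10 (-0.35) with quantile normalization. The cause was not tested. Rescaling to equal sums gave 38 members lower and 27 higher. The labels do not say that replicate numbers pair the libraries. Deviations of same-numbered libraries correlated at -0.26 to 0.15, and 1 sham library correlated best with its own number. With so few libraries these values cannot settle whether the numbers pair them. With the replicate as a block 23 members were called higher and 43 lower. Transcript shares of members gave 0 calls under every alternative run. The depth behind low values is unknown, since the tables hold no counts.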
